A study of Mus musculus with 14 samples.

Results

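Dnah11 and 7 neighbouring genes of distal mouse chromosome 12 are described here across 2 skeletal muscles of Ts1Cje and WT mice. The 8 genes were taken by symbol: Dnah11 (older name Dnahc11), Sp4, Sp8, Abcb5, Itgb8, Macc1 and Tmem196, with Cdca7l as the neighbour on the centromeric side. They had 11 of the 55681 probes on the array, and 8 of its 24553 gene symbols. The rule itself used no measured value, but the genes were chosen with earlier results of these data known.

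The Ts1Cje mouse models Down syndrome, since a distal part of its chromosome 16 is present in an extra copy. The groups were Ts1Cje and disomic WT littermates, all on the C57BL/6 background. The extensor digitorum longus (EDL), a fast muscle of the lower leg, was measured in 3 Ts1Cje and 3 WT samples. The soleus, a slow muscle of the calf, was measured in 4 Ts1Cje and 4 WT samples. Each sample was hybridised to 1 one-colour Agilent microarray of 60-base probes. The labels give neither age nor sex, and do not say whether the muscles of both kinds came from the same animals. They do not tie each array to its own animal either, so the p-values below measure the spread between these samples. In whole muscle, fewer cells of a type and less RNA per cell cannot be told apart.

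The extra segment of chromosome 16 in Ts1Cje mice is carried on the end of chromosome 12, and the exchange is known to have removed the outermost genes of that chromosome from the translocated copy. Mice that carry it therefore hold a single copy of the lost genes, and the break lies in the region of Dnah11. Dnah11 encodes a heavy chain of the outer dynein arm, a motor of motile cilia, and mice without it place their organs left to right at random. Muscle fibres carry no motile cilia.

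Signals were background-subtracted, divided by the 75th percentile of each array and put on the log2 scale, so that 0 is the 75th percentile. A probe counted as detected on an array where the scanner software flagged it as well above background. Spots without this flag are termed under or below background, though some of them carried the software's weaker flag for a positive and significant signal. Between 41.3% and 52.9% of all probes were detected per array, and the 75th percentile was at a signal of 62.4 to 144. No probe was saturated. Arrays of 1 group correlated at 0.978 to 0.988. All 6 EDL arrays and Ts1Cje soleus replicate 1 were on slide 1, and the remaining 7 soleus arrays were on slide 2. The 7 listed markers of skeletal muscle fibres all passed the detection filter described below, and the 1 that differed by genotype, Myh4, is given with the other markers.

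The probes lay on chromosome 12 of the mm9 build, whose positions the deposited annotation uses. The first 2, for Dnah11 at chr12:119116456-119116515 on the minus strand and for Cdca7l at chr12:119116400-119116459 on the plus strand, overlap by 4 bases on opposite strands. Their last 30 bases are shown because, of these adjoining probes, only that of Dnah11 was detected on any array. The 4 shared bases are in capitals.
Dnah11: tctattgtctcttaataaaaaggacaCCTT
Cdca7l: agtgcaattaaccacacactgtgagtAAGG
The genes run towards each other and overlap at their ends in the RefSeq annotation of GRCm38.p6. No other probe among 55680 shared a run of 20 bases with the probe of Dnah11, Sp4, Sp8 or Cdca7l.

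Dnah11 was well above background in every Ts1Cje sample and in no WT sample. By the scanner software's other flag, for a positive and significant signal, it was also detected in 1 of 4 WT soleus samples. In the EDL its signal was 925, 876 and 1453 in the 3 Ts1Cje samples, against 2.15, 2.43 and 2.66 in the 3 WT samples. The lowest signals that were well above background on those arrays were 9.59 to 11.8, so the WT values lie under what the arrays could tell from background. In the soleus the signal was 1300, 2072, 3257 and 1574 in the 4 Ts1Cje samples, against 2.04, 2.45, 2.75 and 7.27 in the 4 WT samples. The groups were far apart in both muscles, and no Ts1Cje value came near a WT value. Every Ts1Cje array lay above every WT array for 2.75% of all tested probes in the EDL and for 4.54% in the soleus.

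On the normalised log2 scale Dnah11 averaged 3.77 ± 0.03 in Ts1Cje EDL and -5.07 ± 0.33 in WT EDL (SD, n = 3 each). Its soleus average was 4.13 ± 0.38 in Ts1Cje and -4.99 ± 0.98 in WT (SD, n = 4 each). Set against the lowest signal well above background on each WT array, the level was at least 103-fold higher in Ts1Cje EDL and at least 152-fold higher in Ts1Cje soleus. limma's adjusted p was 9.95e-07 in the EDL and 1.12e-07 in the soleus, and 4.46e-09 for the mean of both genotype effects. These fits use WT spots under background, whose spread is not that of a measured level. The limit set by the filter, given below, applies to them as well.

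The 25183 tested probes were those detected on every array of at least 1 group. Of the 11 member probes 3 passed, those of Dnah11 and Sp4 and 1 of the 2 for Sp8. In the EDL 1 of these 3 rose, that of Dnah11, where 0.0119% of all tested probes were called and 0.00794% rose. The same 1 of 3 rose in the soleus, where 0.163% were called and 0.115% rose. It also rose in the mean of both muscles, where 0.206% were called and 0.171% rose. Dnah11 passed the filter only through the Ts1Cje groups, so it had to differ to be tested in this way. With all 55681 probes fitted and no filter, its adjusted p by limma was 5.62e-06 in the EDL and 6.79e-07 in the soleus.

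An exact permutation test on Dnah11 alone, two-sided, gave p = 0.1 in the EDL and p = 0.0286 in the soleus, which are the smallest that 3 against 3 and 4 against 4 samples can give. With normexp background correction, which adds an offset of 50 to every signal, the log2 difference was 4.36 in the EDL and 4.996 in the soleus, under the bounds above, and it was still called in both. The other 2 probes called in the EDL carry no gene symbol.

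**Figure D1:**
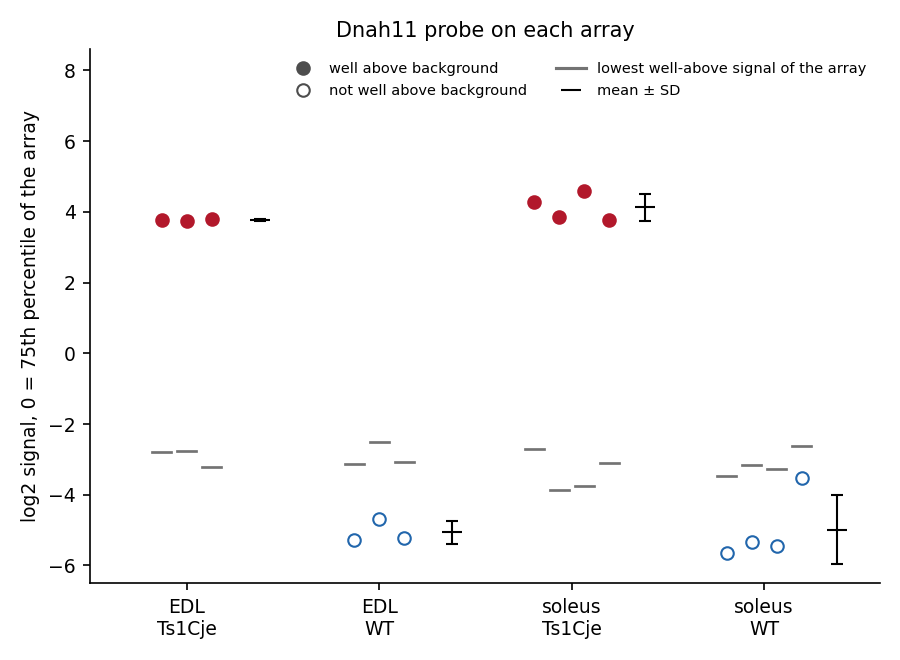
Normalised log2 signal of the Dnah11 probe on each of 14 arrays (0 is the array's 75th percentile), with Ts1Cje in red and WT in blue. Filled points are well above background, open points are not, grey dashes mark the lowest signal well above background on that array, and black bars give the mean ± SD. All 7 Ts1Cje arrays lie between 3.75 and 4.58 and all 7 WT arrays lie under their grey dash, between -5.65 and -3.53.

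Within Ts1Cje mice, the levels of Dnah11 in EDL and soleus were compared. The log2 difference was -0.35 ± 0.41 (SE), with a 95% interval of -1.24 to 0.53, and an exact permutation test of 3 EDL against 4 soleus arrays, two-sided, gave p = 0.114. limma did not call it, where 27.0% of all tested probes were called between these groups. The values overlapped: 3.75 to 3.81 in the EDL and 3.78 to 4.58 in the soleus. The arrays of each muscle lie mostly on separate slides. On slide 1, which holds the 3 EDL arrays and 1 soleus array of Ts1Cje mice, the difference was -0.52, a value that rests on that single soleus array. By mean the order of the 4 groups was soleus Ts1Cje, then EDL Ts1Cje, then both WT groups. The difference of the first pair was not called, and the WT groups were not compared, since their values lie under background.

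Cdca7l, whose protein binds MYC in human cells, was detected on 0 of 14 arrays. Its signal was 2.05, 2.24 and 2.99 in Ts1Cje EDL, against 2.03, 3.06 and 2.51 in WT EDL. The soleus signals were 2.16, 4.49, 2.26 and 2.89 in Ts1Cje and 5.65, 2.32, 2.56 and 2.85 in WT. By the flag for a positive and significant signal it was detected in 2 of 3 Ts1Cje and 1 of 3 WT EDL samples. In the soleus that flag was set in 2 of 4 Ts1Cje and 1 of 4 WT samples. The probe next to that of Dnah11 on the opposite strand was thus dim, and never well above background, in the Ts1Cje samples in which the Dnah11 probe was bright.

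Sp4, a zinc-finger transcription factor that binds GC-rich promoter elements, was the 1 member detected on all 14 arrays. Its probe lies at chr12:119474038-119474097 on the minus strand, 358 kb beyond that of Dnah11. Its signal was 35.1, 41.7 and 49.96 in Ts1Cje EDL, against 67.4, 40.8 and 69.1 in WT EDL. Soleus signals were 31.7, 102, 74.3 and 50.9 in Ts1Cje, against 77.7, 75.6, 100 and 58.4 in WT. After scaling, all 3 Ts1Cje EDL arrays lay below all WT EDL arrays. The soleus groups overlapped, with log2 values of -1.18 to -0.49 in Ts1Cje and -0.52 to -0.25 in WT.

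The normalised log2 level of Sp4 was -0.89 ± 0.21 in Ts1Cje EDL and -0.49 ± 0.15 in WT EDL (SD, n = 3 each). For the soleus these values were -0.90 ± 0.30 in Ts1Cje and -0.39 ± 0.11 in WT (SD, n = 4 each). Such a separation, with every Ts1Cje array below every WT array, was seen in 2.82% of all tested probes in the EDL. The log2 change was -0.40 ± 0.17 (SE) in the EDL, with a 95% interval of -0.77 to -0.03, and limma's adjusted p was 0.99997. For the soleus it was -0.52 ± 0.15, with an interval of -0.84 to -0.19 and a limma adjusted p of 0.253.

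Over both muscles the mean change of Sp4 was -0.46 ± 0.11 (SE), with an interval of -0.70 to -0.21. It ranked 169 of 25183 by p, with an unadjusted p of 0.00154 and a limma adjusted p of 0.229, so Sp4 was not called in any genotype comparison. The intervals are not adjusted for the number of probes. Each lies between 0 and -1, the log2 ratio of 1 gene copy over 2, and holds neither. With normexp background correction the mean change was -0.17, and the EDL and soleus changes were -0.09 and -0.25.

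**Figure D2:**
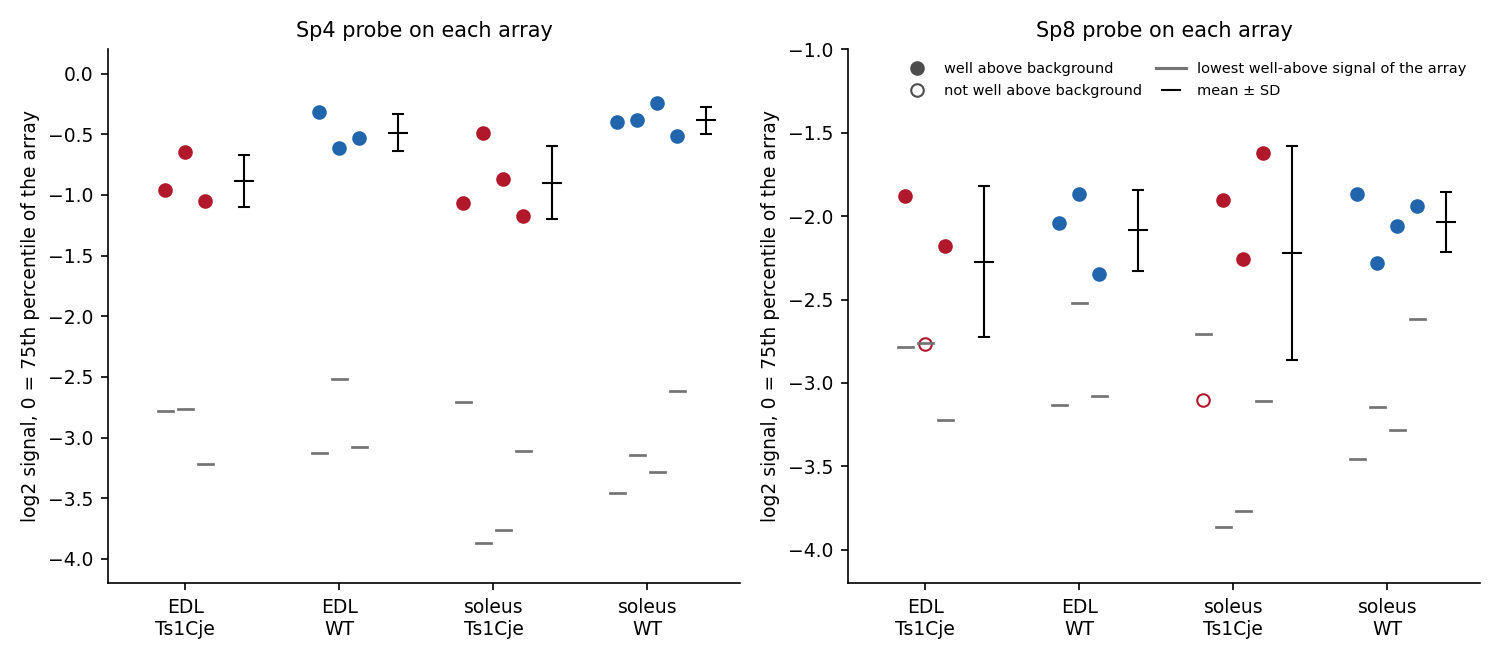
Normalised log2 signal of the Sp4 probe (left) and of the Sp8 probe that passed the filter (right) on each of 14 arrays, with Ts1Cje in red and WT in blue, and an axis of its own for each probe. Filled points are well above background, open points are not, grey dashes mark the lowest signal well above background, and bars give the mean ± SD. Sp4 averages -0.89 and -0.90 in Ts1Cje EDL and soleus and -0.49 and -0.39 in WT, while the Sp8 groups overlap.

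Sp8, a related factor known for its part in limb bud outgrowth, had a pair of probes that disagreed. The probe at chr12:120088145-120088204 on the plus strand was detected on 12 of 14 arrays, and the one at chr12:120090880-120090939 on 0 of 14, with signals of 2.24 to 3.39. The detected probe is shown because the Sp8 values rest on it alone.
Sp8: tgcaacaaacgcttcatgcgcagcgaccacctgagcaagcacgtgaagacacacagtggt
Its signal was 18.5, 9.61 and 22.9 in Ts1Cje EDL, against 20.4, 17.1 and 19.6 in WT EDL. Its soleus signals were 7.72, 38.4, 28.5 and 37.4 in Ts1Cje, against 28.1, 20.3, 28.5 and 21.8 in WT. The 2 arrays on which it was not well above background were Ts1Cje EDL replicate 2 and Ts1Cje soleus replicate 1. Both still carried the flag for a positive and significant signal. The groups overlapped in both muscles.

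The log2 change of Sp8 was -0.19 ± 0.32 (SE) in the EDL, with a 95% interval of -0.88 to 0.51. The soleus change was -0.18 ± 0.28, with an interval of -0.79 to 0.42. The mean over both muscles was -0.19 ± 0.21, with an interval of -0.65 to 0.27 and a limma adjusted p of 0.805. The direction rests on the 2 undetected spots, with 0.06 in the EDL without Ts1Cje replicate 2 and 0.11 in the soleus without Ts1Cje replicate 1, the soleus array that shares slide 1 with the EDL. The interval of the mean holds 0 and not -1.

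The remaining genes gave no usable level in these muscles. Abcb5, an ABC transporter known for drug efflux in human melanoma cells, had 3 probes between chr12:120106297-120106356 and chr12:120203761-120204843 on the minus strand. None was detected on any array, and their signals ran from 2.08 to 11.7, the highest in WT soleus replicate 4. By the flag for a positive and significant signal, the probe at chr12:120203761-120204843 was detected in 3 of 4 WT soleus and 1 of 3 WT EDL samples. In Ts1Cje samples that flag was set for none of its spots, and for another Abcb5 probe in 1 of 3 Ts1Cje EDL samples. These counts were not tested, and the share over all probes was not taken. Itgb8, the integrin subunit that pairs with the alpha v chain and activates latent TGF-beta, was at 1.995 to 2.94 on all 14 arrays, at chr12:120401278-120401337 on the minus strand. None of these values was well above background, and no fold is given.

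Macc1, named for its link to metastasis of colon cancer and known in human cells to raise expression of the receptor MET, was detected on 1 of 14 arrays. Its signal at chr12:120705295-120705354 was 3.63, 2.46 and 8.63 in Ts1Cje EDL, against 2.47, 4.28 and 4.44 in WT EDL. In the soleus it was 2.46, 34.6, 5.14 and 3.52 in Ts1Cje, against 5.30, 2.88, 3.19 and 3.42 in WT. The detected array was Ts1Cje soleus replicate 2, and it stood apart from the other 3 of its group. The flag for a positive and significant signal was set in 2 of 3 Ts1Cje and 3 of 3 WT EDL samples. In the soleus it was set in 2 of 4 Ts1Cje and 1 of 4 WT samples. Tmem196, which encodes a transmembrane protein, was detected on 0 of 14 arrays at chr12:121256995-121257054, with its highest signal of 9.66 in Ts1Cje soleus replicate 4. Its spots were flagged positive and significant in 1 of 3 Ts1Cje and 2 of 3 WT EDL samples. For the soleus these counts were 3 of 4 in Ts1Cje and 1 of 4 in WT.

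**Figure D3:**
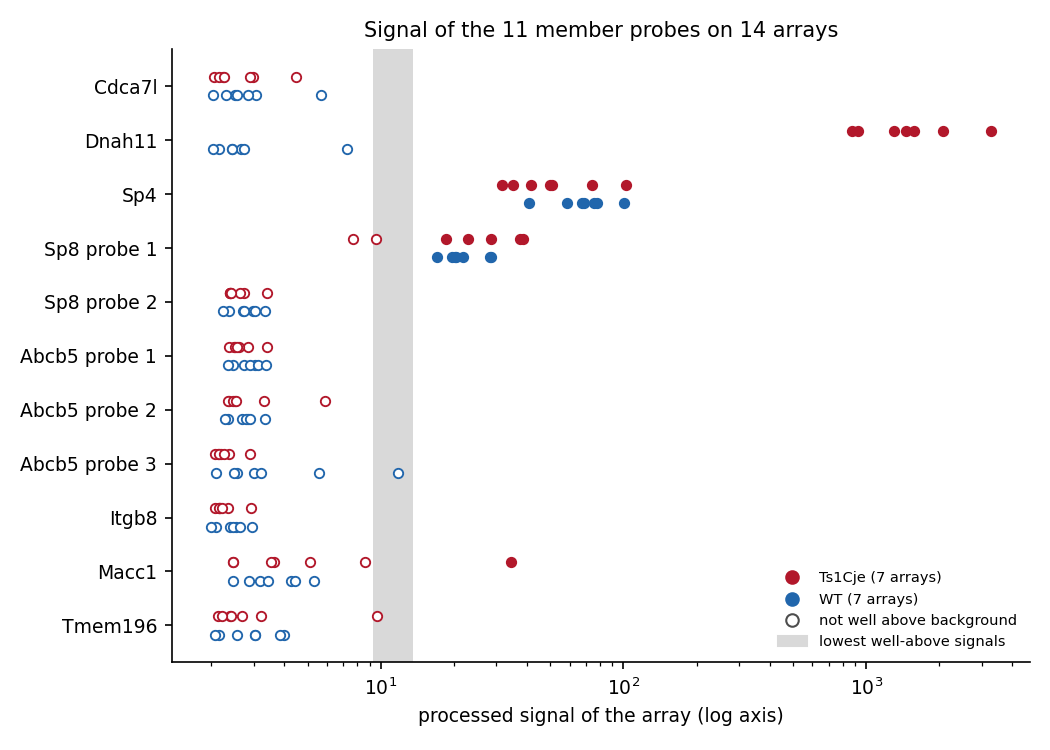
Processed signal (log axis) of the 11 member probes, ordered along chromosome 12 from the centromeric side, on 7 Ts1Cje arrays (red, upper row of each probe) and 7 WT arrays (blue, lower row). Filled points are well above background, open points are not, and the grey band spans the lowest signals well above background, 9.33 to 13.6. The red Dnah11 points lie between 876 and 3257, and the blue ones between 2.04 and 7.27.

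The probes beyond that of Dnah11, where the lost genes lie, were compared with those before it. Of 21 probes placed at or beyond the Dnah11 probe 7 passed the filter: Dnah11, Sp4, Sp8 and 4 without a gene symbol. The median log2 change of the 6 besides Dnah11 was -0.13 in the EDL, with 5 of 6 below 0, and -0.10 in the soleus, with 4 of 6 below 0. The mean over both muscles had a median of -0.12. None of the 6 was called in any of these comparisons by limma, and in the mean of both muscles the unadjusted p was under 0.05 for 2266 of all 25183 probes. Over the 179 kept probes within 10 Mb before the Dnah11 probe the medians were 0.01, -0.07 and -0.01, and 0 were called. Over all kept probes they were -0.00, 0.03 and 0.01. A change below 0 was seen for 50.6% of all kept probes in the EDL comparison and for 46.0% in that of the soleus.

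Among the 4 unnamed probes, the widest change was that of A_30_P01029802 at chr12:119841346-119841405 on the minus strand, 725 kb beyond Dnah11. It averaged 3.42 ± 0.55 in Ts1Cje soleus and 4.00 ± 0.17 in WT soleus (SD, n = 4 each). Its log2 change was -0.58 ± 0.22 (SE) in the soleus and -0.22 ± 0.26 in the EDL, and limma's adjusted p was 0.330 in the soleus and 0.99997 in the EDL. The probe A_30_P01020276, which covers nearly the same bases on the plus strand, had 0.10 ± 0.14 in the soleus and 0.00 ± 0.16 in the EDL. The probes counted above are therefore not all separate loci. A further gene symbol beyond Dnah11, D230030E09Rik, had a probe that did not pass the filter.

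Of the named genes before Cdca7l, the 3 with the nearest kept probes were Rapgef5, Gm5441 and Ptprn2. Rapgef5, an exchange factor for Rap proteins, was the nearest and had a mean log2 change of -0.09 ± 0.16 (SE). Gm5441 had -0.08 ± 0.12 and Ptprn2, a phosphatase-like protein of secretory vesicles, had -0.13 ± 0.11. Their limma adjusted p-values were 0.880, 0.861 and 0.744.

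**Figure D4:**
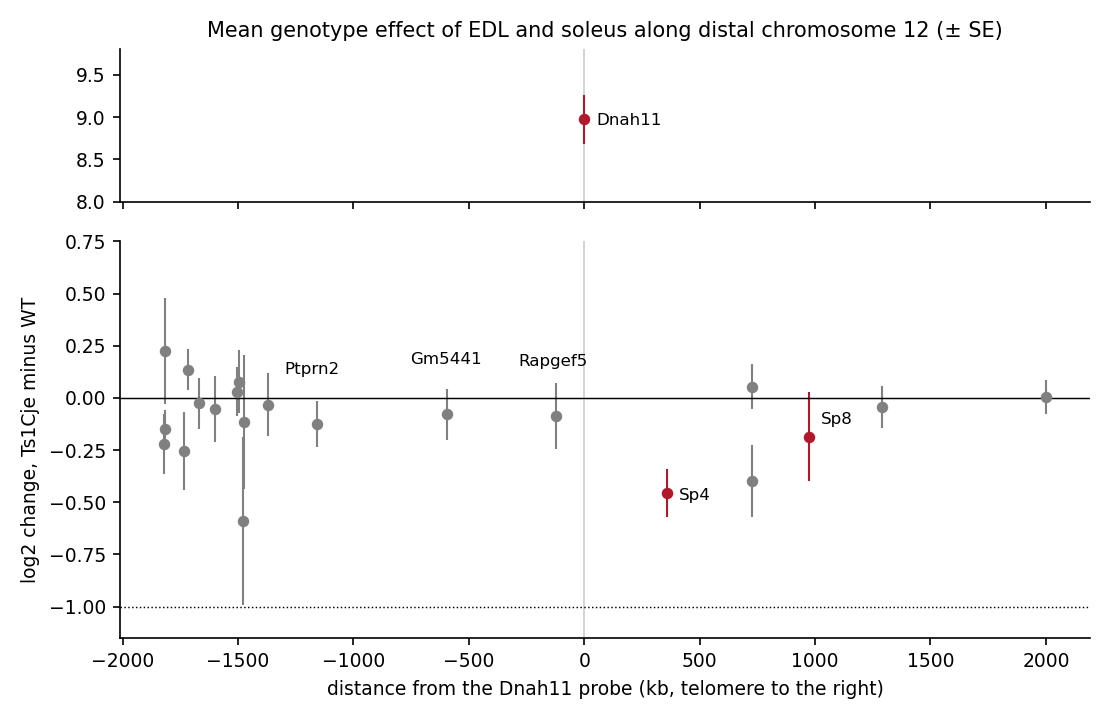
Mean log2 change of EDL and soleus, Ts1Cje minus WT, for kept probes from 2000 kb before the Dnah11 probe to the end of the annotated stretch beyond it, with SE bars, members in red and other probes in grey. The vertical scale is split, with Dnah11 at 8.97, measured against WT spots that lie under background, and the other probes on the lower panel, where a dotted line marks -1. Sp4 at -0.46 lies lowest of the probes beyond Dnah11, and Rapgef5, Gm5441 and Ptprn2 lie close to 0.

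No member that could be compared was called between the EDL and the soleus, or for a different genotype effect in them. The genotype effect in the EDL minus that in the soleus was 0.12 ± 0.23 (SE) for Sp4, with an interval of -0.38 to 0.61, and -0.01 ± 0.43 for Sp8, with an interval of -0.92 to 0.91. Of all tested probes 0.0% were called for this difference by limma, and 883 had an unadjusted p under 0.05. EDL minus soleus over both genotypes was -0.04 ± 0.11 for Sp4, with an interval of -0.29 to 0.20, and -0.05 ± 0.21 for Sp8, with an interval of -0.51 to 0.41. Neither was called between the muscles, where 42.9% of all tested probes were. With slide as a block these 2 values turned to 0.15 ± 0.24 for Sp4 and 0.98 ± 0.32 for Sp8, again not called (limma adjusted p = 0.743 and 0.0676). For Dnah11 these differences are not given, since its WT values are below background.

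The rest of the cilium was then examined. Of 37 genes for axonemal dyneins and other parts of motile cilia 13 were measured, meaning that a probe passed the filter, and none was called by genotype in the EDL, in the soleus or in the mean of both. Their median log2 change over both muscles was -0.01, within a range of -0.49 to 0.42, beside a median of 0.03 over all 14164 measured genes. The list holds 13 other heavy chains of axonemal dyneins. Of these Dnah8 was measured, with a mean change of -0.15, and so was Dnah14, with -0.49, neither of them called (limma adjusted p = 0.660 and 0.453). Dnah2, Dnah3, Dnah5 and Dnah10 were detected on 0 arrays. The other 7 did not pass the filter but had a probe detected on 1 to 7 arrays. The highest of these was Dnah6, on 3 Ts1Cje soleus, 3 WT soleus and 1 WT EDL arrays.

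Markers of multiciliated cells were set beside Dnah11. Of 12 listed, 4 were measured, and Foxj1, the transcription factor that drives motile ciliogenesis, was detected on no array, as were Ccdc39, Dnah5 and Sntn. The summed level of all 12 listed markers, relative to the 75th percentile, was 16.1 to 27.0 in Ts1Cje EDL and 13.3 to 20.4 in WT EDL. In the soleus it was 17.5 to 26.7 in Ts1Cje and 14.1 to 18.4 in WT. These ranges overlap, and none of the 4 was called by genotype. Summed levels of 2 other marker lists did not overlap between genotypes in 1 muscle: macrophages, at 14.5 to 17.8 in Ts1Cje EDL and 11.6 to 14.5 in WT EDL, and red blood cells, at 112 to 138 in Ts1Cje soleus and 77.5 to 90.6 in WT soleus. None of their measured genes was called, and their part in the Dnah11 result was not tested.

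Among the 7 markers of muscle fibres, Myh4, the myosin heavy chain of the fastest fibres, fell in Ts1Cje soleus. Its signal was 3423, 19372, 2908 and 1694 in the 4 Ts1Cje soleus samples, against 83382, 60296, 108263 and 36978 in the 4 WT soleus samples. The log2 change was -4.12 ± 0.53 (SE) with a limma adjusted p of 0.00877, which was 0.0252 with slide as a block. Of all 25183 tested probes, 12 fell in the soleus. In the EDL, Myh4 had 0.03 ± 0.62 and was not called. The part of Myh4 in the Dnah11 result was not tested. The other 6 fibre markers were not called by genotype, and the summed level of all 7 was 6971 to 9009 in Ts1Cje soleus and 8194 to 8867 in WT soleus.

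Genes that work with the other members were examined in the same way. Cytoplasmic dynein and dynactin, which move cargo along microtubules in every cell, had 16 of 19 genes measured and none called. Their median change over both muscles was 0.11, with 15 of 16 above 0, beside a median of 0.03 over all measured genes. Of all tested probes 47.9% lay below 0 in this mean of both muscles. The Sp family besides Sp4 and Sp8 had 4 of 7 measured and none called, and its gene of smallest p was Sp1, at 0.31 ± 0.12 (SE) with a limma adjusted p of 0.4998. ABC transporters had 12 of 13 measured, and the integrin and TGF-beta list 20 of 20. None of either list was called by genotype, and their medians were 0.03 and 0.14.

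Of the MACC1 list only Met, the receptor whose expression MACC1 raises in human cells, was measured, at -0.07 over both muscles with a limma adjusted p of 0.825. Of the Cdca7l list Mycbp and Maob were measured, and Mycbp had -0.19 ± 0.11 (SE) with a limma adjusted p of 0.640. Of the members and these 7 lists, Dnah11 was the 1 gene called by genotype.

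Chromosome 16 genes at the junction side of the extra segment were examined next. All 9 listed were measured. In the soleus 3 of 9 rose, where 0.205% of all measured genes were called: Sod1, the cytosolic superoxide dismutase, by 1.09 ± 0.12 log2 units (SE), Synj1, a lipid phosphatase of vesicle recycling, by 0.78 ± 0.10, and Eva1c by 1.08 ± 0.19. limma's adjusted p was 0.00350, 0.0100 and 0.0477. In the EDL 0 of 9 were called and the median was 0.44, against 0.63 in the soleus. Over both muscles the same 3 genes were called, at 0.97 for Sod1, 0.65 for Synj1 and 0.84 for Eva1c, where 0.254% of all measured genes were. With slide as a block Eva1c lost its call, with a limma adjusted p of 0.103 in the soleus and 0.0573 over both muscles. Tiam1 had -0.05 and Mrap -0.20 over both muscles, neither of them called.

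**Figure D5:**
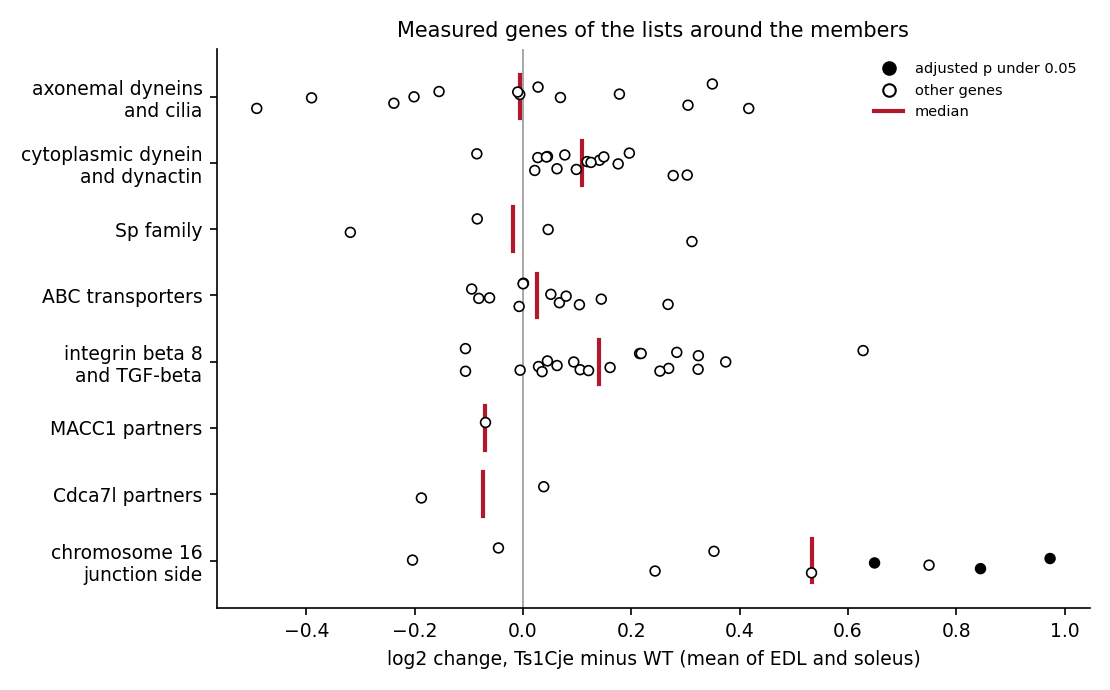
Mean log2 change of EDL and soleus, Ts1Cje minus WT, for each measured gene of the 8 lists (1 point per gene, spread vertically at random), with list medians in red. Filled points have a limma adjusted p under 0.05 and are Synj1, Eva1c and Sod1, at 0.65, 0.84 and 0.97. The 13 cilium genes lie between -0.49 and 0.42.

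Between EDL and soleus, over both genotypes, 24.9% of all tested probes were higher in EDL and 18.0% lower. Muscle and slide are nearly the same division here, with 6 of 6 EDL arrays on slide 1 and 7 of 8 soleus arrays on slide 2. With slide as a block the probes called numbered 3374 in place of 10806, and that fit rests on the 1 soleus array of slide 1. Of the 13 cilium genes 4 were higher and 3 lower in EDL, among them Tekt1, a protein of ciliary microtubules, at 1.44 ± 0.24 log2 units (SE), Dnaic1, a dynein intermediate chain, at 0.66 ± 0.10, and Rsph4a, a radial spoke protein, at -0.88 ± 0.20. Of cytoplasmic dynein and dynactin 5 were higher and 1 lower in EDL, including Dynlt1f at 0.56 ± 0.08, Dctn6 at 0.40 ± 0.07 and Dctn1 at 0.44 ± 0.08. Of the ABC transporters 6 were higher and 1 lower, with Abcc4 at 1.13 ± 0.14, Abcc5 at 0.95 ± 0.08 and Abcb9 at 0.75 ± 0.10. The limma adjusted p of these 9 genes was at most 0.00389. With slide as a block 1 of 7 called cilium genes kept its call, Dnaic1, and so did 0 of 6 of cytoplasmic dynein and dynactin and 5 of 7 ABC transporters, among them Abcc5 and Abcb9 but not Abcc4.

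In the TGF-beta list 2 genes were higher and 8 lower in EDL. Tgfb1, a ligand of the pathway, had -0.86 ± 0.12 (SE), and Tgfb2, another ligand, had 0.77 ± 0.15. Met was higher in EDL by 0.35 ± 0.09. Of the chromosome 16 list 2 were higher and 4 lower in EDL, with Mrap at -2.06 ± 0.35, Synj1 at -0.76 ± 0.08 and Sod1 at 0.33 ± 0.09. With slide as a block 1 of 10 called genes of the TGF-beta list kept its call, Tgfb1, and 2 of 6 of the chromosome 16 list did, Mrap and Synj1, while Met lost its call.

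The promoters of Dnah11 and Sp4 are shown because one gene was detected in Ts1Cje muscle alone and the other on every array. They are the 250 bases before the start of each gene in RefSeq, build GRCm38.p6, and all 8 members matched that table. Capitals mark GGGCGG on either strand, the GC box to which Sp factors bind. Dnah11 lies at chr12:118199044-118199293 on the minus strand and Sp4 at chr12:118301441-118301690 on the minus strand.
Dnah11: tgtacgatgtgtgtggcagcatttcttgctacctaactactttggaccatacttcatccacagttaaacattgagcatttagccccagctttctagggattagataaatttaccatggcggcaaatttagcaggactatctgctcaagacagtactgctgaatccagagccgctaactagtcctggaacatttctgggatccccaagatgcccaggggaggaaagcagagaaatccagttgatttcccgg
Sp4: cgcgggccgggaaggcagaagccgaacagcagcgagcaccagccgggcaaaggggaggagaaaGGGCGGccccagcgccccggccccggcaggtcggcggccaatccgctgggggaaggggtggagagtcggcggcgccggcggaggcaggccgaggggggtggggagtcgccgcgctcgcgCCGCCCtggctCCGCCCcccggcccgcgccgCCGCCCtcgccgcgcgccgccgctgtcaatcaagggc
The Sp4 window held 4 matches and was 80% G or C, and the Dnah11 window held 0 and was 46% G or C. Of 32851 promoter windows listed there, 32.7% held a match. The windows of Cdca7l, Abcb5, Itgb8, Macc1 and Tmem196 held 0 matches, at 73.2%, 36.8%, 62.4%, 30% and 56.8% G or C. Those of Sp8 held 0, 1 and 0. The windows of Cdca7l and Macc1 lie inside the span of the gene, and those of Abcb5 and Sp8 lie partly or wholly inside it. These windows are therefore not the bases before the outermost start of the gene. A match is a run of letters only, and binding was not measured. Whether the Dnah11 window shown drives the signal in Ts1Cje muscle was not tested.

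Genes whose values over the 14 arrays were most like those of each detected member were named by Pearson's r. For Dnah11 they were Tmem50b, at 0.948, Morc3, at 0.939, Psmg1, at 0.927, Atp5o, at 0.923, and Dnpep, at 0.921. The first 4 lie on chromosome 16 and Dnpep on chromosome 1. The Dnah11 values fall into a Ts1Cje and a WT cluster, so these r values follow the genotype difference that each gene shows: in all 5, every Ts1Cje array lay above every WT array within each muscle, where 2.75% of probes did so in the EDL and 4.54% in the soleus. For Sp4 the most alike were Stk11ip, at 0.832, Cacfd1, 2900052L18Rik, Nbeal2 and Bpifa5, and for Sp8 they were Tafa5, at 0.809, Olfr482, Sstr4, Gm45351 and Ubr2. None of these 10 lies on chromosome 12.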

How the data were processed

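Per the labels, Cy3-labelled cRNA of 14 muscle samples was put on 1-colour arrays. The authors deposited scanner files whose gProcessedSignal is an intensity with the background subtracted, made with Agilent Feature Extraction. The file headers give its version as 11.5.1.1, and the submitters' processing notes as 9.1. Per the file headers, these files also hold median intensities of spot and local background, and other columns that flag spots with 0 or 1. The authors' deposited normalized table holds log2 values, which correlated at 0.99989 or more with values recomputed here, centred on each probe's median, and it also gave the probe annotation.

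Values were log2 of gProcessedSignal minus log2 of the 75th percentile of each array. The 3671 control spots of 62976 were left out, spots of 1 probe were averaged, and outlier spots were dropped where others remained. A probe was kept when 1 or more of the 4 groups had it well above background on all arrays, which left 25183, 18509 with a symbol and 6674 without. Of 55681 probes 33822 had a symbol, of which 2152 were updated through RefSeq. A gene in a list was represented by its kept probe of highest mean.

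With limma 3.58.1 in R 4.3.3, 1 mean per group was fitted to all 14 arrays (10 residual and 2.86 prior degrees of freedom). All tests were two-sided, p-values were adjusted by Benjamini and Hochberg's method over all kept probes, and the words rose and fell are used of probes with an adjusted p under 0.05, termed called. The number of arrays limits the precision. The fit was tested on simulated data. Dnah11 folds are bounds against the lowest signal well above background on each WT array.

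Members and lists were chosen with earlier results of these data known. Named are all members, the up to 3 called genes of smallest p of each list per comparison (otherwise the 1 of smallest p), the 3 nearest named genes before Cdca7l, other probes beyond Dnah11, and the 5 genes most like each kept member; 1 gene that this rule names is not reported here. Further genes named in the text, such as single dyneins, Myh4, Tiam1, Mrap and Maob, were chosen after their values were seen. The comparison of EDL with soleus within Ts1Cje mice was added after the data were seen, as were slide-blocked values of list genes and the bounds without single arrays. Alternatives covered background correction, scaling, filter, probe choice, slide, replicate block, array weights, the variance prior and each array left out.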

Additional observations from a re-analysis of the deposited data

Results flagged for a closer look

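The Dnah11 probe in WT soleus had 1 array that stood apart from the other 3 of its group. Its normalised log2 value was -3.53 in replicate 4, a signal of 7.27, where the others had signals of 2.04, 2.45 and 2.75. The gap to the nearest array was 0.848 of the range of the group, above Dixon's 95% critical value of 0.829 for 4 samples. The spot was not well above background, and the lowest signal that was on that array was 13.6. Without this array the log2 difference of Dnah11 in the soleus was still called by limma.

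The Macc1 probe in Ts1Cje soleus had 1 such array, replicate 2, with a normalised log2 value of -2.06 and a signal of 34.6, where the others had 2.46, 5.14 and 3.52. The gap was 0.898 of the range, and the spot was the 1 detected for Macc1 on any array. These were the 2 values that stood apart over 22 groups of 4 soleus arrays, 2 for each of the 11 member probes, and chance flags about 1 in 20 such groups.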

How the results depend on the processing

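Slide 1 or the EDL arrays alone give the EDL comparison only, and slide 2 or the soleus arrays alone the soleus comparison only. Wherever a genotype comparison within a muscle or in the mean of both could be fitted, Dnah11 was called, no other member probe was, and Sp4 was below 0. Without single arrays the bound on the Dnah11 fold was 95.2 to 118 in the EDL and 137 to 171 in the soleus. Sp4 had -0.52 to -0.31 in the EDL, -0.65 to -0.42 in the soleus and -0.53 to -0.41 in the mean without single arrays, and its lowest limma adjusted p in these fits was 0.0742. The replicate numbers were not taken to pair the samples, since the labels do not say that a number marks a litter or an animal. In the EDL, deviations of same-numbered arrays correlated at 0.32, 0.06 and 0.29, and those of differently numbered arrays at -0.28 to -0.002. The EDL arrays thus did go together by number. In the soleus, same-numbered arrays had -0.08, -0.30, -0.01 and -0.12, and differently numbered ones -0.17 to 0.39. With the replicate block, Dnah11 kept its call with adjusted p of 0.00246 in the EDL, 0.000647 in the soleus and 9.09e-05 in the mean, while all probes called numbered 1 in the EDL, 10 in the soleus, 7 in the mean and 3664 between muscles.

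The count of all probes called moved more than the members did, from 3 in the EDL, 41 in the soleus, 52 in the mean and 10806 between muscles. In the EDL it was 5 with quantile normalization, array weights or a trended robust variance, 1 with 1 probe per gene symbol, with slide 1 alone or with the EDL arrays alone, and 1 to 4 without single arrays. In the soleus it was 27 with normexp, 8 without the filter, 16 with slide as a block, 1 with slide 2 alone, 4 with the soleus arrays alone, and 12 to 43 without single arrays. In the mean it was 34 with normexp, 6 without the filter, and 30 to 55 without single arrays. Between muscles it was 6588 with 1 probe per gene symbol and 3374 with slide as a block. Fewer probes or arrays enter some of these fits; otherwise the cause was not tested.

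Sp8 turned positive in the soleus, at 0.11, with slide as a block, with slide 2 alone or without Ts1Cje replicate 1, and ranged without single arrays from -0.38 to 0.11, and in the EDL from -0.39 to 0.057. For the genotype effect in EDL minus that in soleus, Sp8 was 0.028 with normexp and 0.053 with the percentile over detected probes, and -0.30 to 0.24 without single arrays. Sp4 was -0.00 to 0.25 there without single arrays. Between muscles Sp8 was 0.14 with normexp, 0.070 with quantile normalization, 0.98 with slide as a block (limma adjusted p = 0.0676), and -0.20 to 0.072 without single arrays. Sp4 was 0.029 with normexp, 0.21 with the replicate block, 0.15 with slide as a block, and -0.10 to 0.026 without single arrays. None of these changed a call. Dnah11 in EDL minus soleus of Ts1Cje mice lay between -0.52 and -0.20 throughout and was not called. With the flag for a positive and significant signal, 4 member probes in place of 3 were detected on every array of a group, and Dnah11 was detected on 1 WT soleus array.

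Some genes lay under background on nearly all arrays, so a change of single-copy size could not be measured for Abcb5, Itgb8, Macc1, Tmem196 and Cdca7l. Probe positions are of mm9 and promoters of GRCm38.p6, and exons were not assigned.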
